A study of Mus musculus with 2 samples.

Results

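The genes described here mark or specify neurons of the upper layers of the cerebral cortex: Cux1, Cux2, Pou3f1, Pou3f2, Pou3f3, Rorb, Mdga1 and an antisense RNA listed as Inhba-AS. They are 8 genes by name out of 55536 genes in the M21 gene tables, chosen by symbol, with earlier results of these data known. Symbols of 7 of them were found in the annotation. The name Inhba-AS is no symbol there. It was matched by position to Gm48444, the 1 gene with the antisense biotype that overlaps Inhba on the opposite strand. Polyadenylated RNA was sequenced from 2 forebrains of newborn mice (strain B6NCrl, age 0 days, no treatment, sex not recorded), each a single pup, named pup 1 and pup 3 in the labels, starting from 10 ng of RNA. Both libraries belong to 1 group and the labels give both pups 1 donor identifier, so no test between groups was possible, and differences between the pups are given by size. Whole forebrain holds striatum, thalamus and hypothalamus besides cortex.

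Projection neurons of the cortex are born in an inside-out order, so that upper-layer cells, which connect cortical areas and receive thalamic input in layer IV, are born last and are still settling at birth. Cux1 and Cux2 encode homeodomain proteins with CUT repeats that shape the dendrites and synapses of these cells. Pou3f1, Pou3f2 and Pou3f3 encode class III POU factors that act in late progenitors and in their upper-layer progeny, and are used in other tissues too, for instance Pou3f1 in Schwann cells. Rorb encodes an orphan nuclear receptor of layer IV neurons that is also made in thalamus and retina. Mdga1 encodes a membrane-anchored immunoglobulin protein of migrating upper-layer neurons that binds neuroligins.

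The Cux1 locus makes more than the homeodomain factor. It also encodes CASP, a membrane protein of the Golgi apparatus that shares the first coding exons of CUX1 and lacks its CUT repeats and homeodomain. The place where the coding sequences part is shown because the Cux1 level turned on it. Both lines were read from the M21 transcripts (mm10, minus strand), with bases of the last shared exon, chr5:136314307-136314403, in lower case and the first bases of the next exon in capitals. That next exon is chr5:136312643-136313008 in the homeobox transcript of 12862 bases and chr5:136257913-136258040 in the CASP transcript of 2831 bases.
Cux1 homeobox: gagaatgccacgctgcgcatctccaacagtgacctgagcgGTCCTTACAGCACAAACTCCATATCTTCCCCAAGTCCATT
Cux1 CASP: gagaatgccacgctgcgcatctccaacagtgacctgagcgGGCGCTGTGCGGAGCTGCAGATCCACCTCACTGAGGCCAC

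The homeobox reading frame was 4278 bases long (1426 residues) in that transcript and the CASP frame 2028 bases (676 residues). They shared 1249 coding bases. A further 3029 coding bases were found in the homeobox frame alone and 779 in the CASP frame alone.

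Rorb starts from either of 2 promoters, which give receptors with different first residues. The coding starts are shown, in capitals, up to the first shared exon (chr19:18988031-18988116, mm10, minus strand), whose first bases follow in lower case. The upstream start encoded 459 residues and the downstream start 470. These are the lengths of the proteins known as RORβ1 and RORβ2.
Rorb upstream start: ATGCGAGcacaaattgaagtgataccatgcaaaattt
Rorb downstream start: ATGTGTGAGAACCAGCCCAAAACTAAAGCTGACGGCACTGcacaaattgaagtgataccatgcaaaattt

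All 7 genes matched by symbol reached a TPM of 1 or more (transcript abundance corrected for length and library depth) in both pups, as did 26.6% of all listed genes and 59.5% of protein-coding genes. Levels ran from 7.52 to 68.5 TPM, with a median of 13.3 ± 0.615 TPM (SD of the median in each pup, n = 2). The median over detected protein-coding genes was 17.1 TPM. Reads behind each gene ranged from 926 to 5488 expected counts per library. The 8th, Gm48444 (chr13:16025382-16032275), had 0 counts in both pups, which allows up to 0.242 TPM (pup 1) and 0.215 TPM (pup 3) at a limit of 3 counts. Its exons share no base with those of Inhba, the gene of the activin subunit on the other strand, which stood at 4.62 and 3.45 TPM. On the strand of Gm48444 the span of Inhba is also overlapped by B230303A05Rik (chr13:15813548-16023423). That gene is annotated as a transcribed processed pseudogene, so it was not matched to the listed name. It had 152 counts (6.22 TPM) in pup 1 and 107 counts (3.72 TPM) in pup 3.

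**Figure D1:**
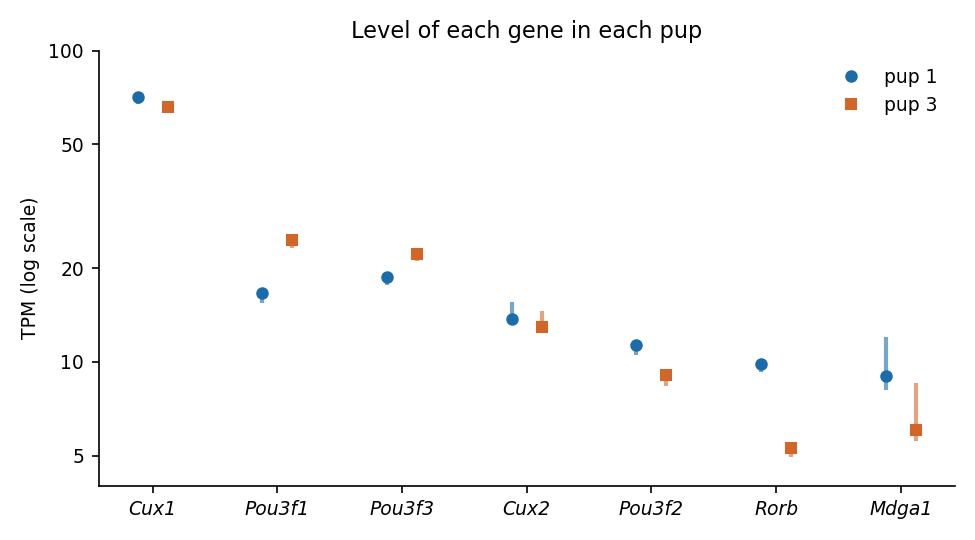
Level of each of the 7 genes in pup 1 (circles) and pup 3 (squares) on a log axis of TPM. Vertical lines are the credible intervals deposited with the tables, and points are not at their centre because the intervals surround the posterior mean. Cux1 stood highest in both pups, and Rorb and Mdga1 lay lowest in both.

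Cux1 (ENSMUSG00000029705.17, chr5:136248135-136567490) stood at 71.0 TPM (pup 1) and 65.9 TPM (pup 3), a mean of 68.5 ± 3.63 TPM (SD, n = 2 pups here and below). It was the highest of the 7 genes in each pup. Most of that level belonged to CASP. Transcripts ending at the CASP stop codon held 60.5 TPM (pup 1) and 60.9 TPM (pup 3), or 88.7% ± 5.12 of the Cux1 total. Transcripts ending at the homeobox stop codon held 3.22 TPM (pup 1) and 2.55 TPM (pup 3), or 4.20% ± 0.469. The CASP form was the higher one in both pups, by a log2 ratio of 4.36 ± 0.24.

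Among single transcripts, the CASP transcript shown above led with 43.0 TPM (pup 1) and 40.2 TPM (pup 3), and another CASP transcript of 2821 bases followed at 12.2 and 13.3 TPM. The homeobox transcript shown above had 1.54 TPM (pup 1, deposited credible interval 1.34 to 1.67) and 0.97 TPM (pup 3, 0.831 to 1.08). In reads, which are not divided by length, the CASP transcripts took 4222 and 4751 counts and the homeobox transcripts 732 and 610. The homeobox share was therefore 13.9% and 11.1% of the Cux1 counts, above its share of TPM in both pups because its transcripts are longer. The remaining 6 transcripts, which include retained introns and a fragment of 805 bases, held 7.35 TPM (pup 1) and 2.48 TPM (pup 3). Reads in the shared exons are divided between forms by the quantifier, which assumes coverage along the whole transcript, and coverage along these transcripts was not analysed here.

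Cux2 (ENSMUSG00000042589.18, chr5:121856366-122050102) stood at 13.8 TPM (pup 1) and 12.9 TPM (pup 3). The transcripts with the full homeobox reading frame held 12.3 and 11.1 TPM of it, all of it from 1 transcript of 8784 bases, and 99.5% and 99.1% of the counts. By gene total Cux1 exceeded Cux2 by a log2 ratio of 2.35 ± 0.01 in TPM. Between homeobox transcripts alone the order turned: Cux1 lay below Cux2 by -1.99 ± 0.13 (log2), in both pups. That comparison was chosen after the transcript values were seen.

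**Figure D2:**
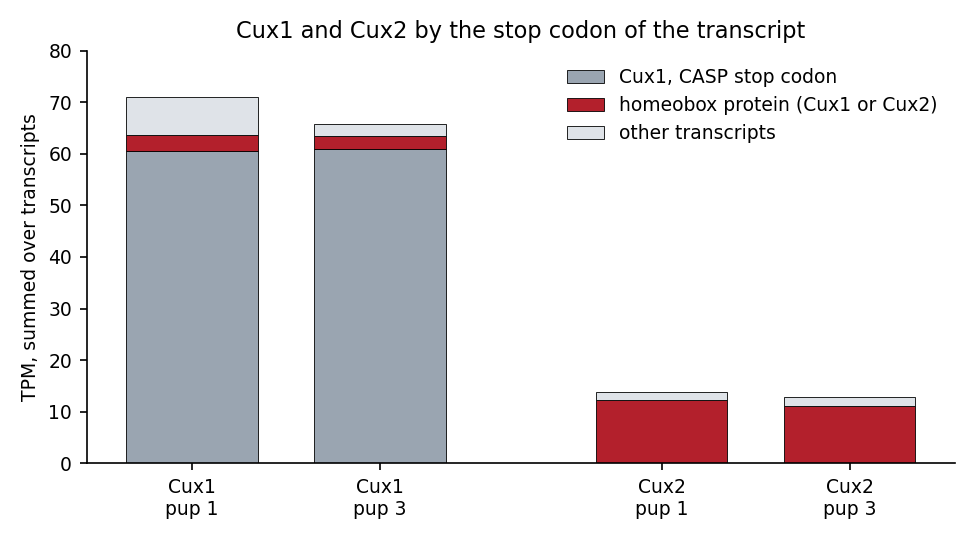
TPM of Cux1 and Cux2 in each pup, as stacked bars from 0, split by the stop codon that the transcripts carry. Red marks transcripts that end at the stop codon of the homeobox protein, which hold 3.22 and 2.55 TPM of Cux1 and 12.3 and 11.1 TPM of Cux2. The blue-grey transcripts with the CASP stop codon hold 60.5 and 60.9 TPM. A transcript with no annotated start codon holds 1.19 (pup 1) and 0.48 TPM (pup 3) of the red Cux1 part. Another such transcript holds 5.24 and 7.32 TPM of the CASP part.

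The 3 POU genes have 1 exon and 1 listed transcript each and are close relatives, so their reads could be mixed up. A stretch of their coding sequences is shown for that reason. It surrounds the longest run of bases that all 3 share (20 bases) and has positions that differ between them in capitals. It begins at base 716 of the Pou3f1 reading frame, counted from 1 at the start codon, at base 773 of Pou3f2 and at base 914 of Pou3f3 (chr4:124658422-124658511 plus strand, chr4:22487270-22487359 minus strand and chr1:42698059-42698148 plus strand, mm10).
Pou3f1: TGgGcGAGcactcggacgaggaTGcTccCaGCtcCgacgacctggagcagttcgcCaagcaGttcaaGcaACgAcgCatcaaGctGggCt
Pou3f2: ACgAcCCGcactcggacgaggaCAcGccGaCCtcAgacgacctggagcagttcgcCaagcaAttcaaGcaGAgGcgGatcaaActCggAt
Pou3f3: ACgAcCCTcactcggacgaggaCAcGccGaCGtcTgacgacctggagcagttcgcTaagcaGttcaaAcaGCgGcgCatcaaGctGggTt

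Over these 90 bases 23 positions differed. Pou3f2 and Pou3f3 were identical at 79, Pou3f1 and Pou3f3 at 72, and Pou3f1 and Pou3f2 at 71. Over the whole reading frames the longest identical run was 38 bases between Pou3f1 and Pou3f2, 29 between Pou3f1 and Pou3f3 and 23 between Pou3f2 and Pou3f3. The deposited counts were hardly split: the posterior SD of the count was 0 for Pou3f2 and Pou3f3 in both pups, and 0.23 and 0.47 reads for Pou3f1.

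Pou3f3 (ENSMUSG00000045515.3, chr1:42695768-42703176) stood at 18.8 TPM (pup 1) and 22.2 TPM (pup 3), a mean of 20.5 ± 2.45 TPM. Pou3f1 (ENSMUSG00000090125.3, chr4:124656807-124660655) stood at 16.7 and 24.7 TPM, a mean of 20.7 ± 5.67 TPM. Their ranges over the pups overlapped and their order changed, with Pou3f3 higher in pup 1 and Pou3f1 higher in pup 3. Pou3f2 (ENSMUSG00000095139.2, chr4:22482780-22488366) was lower than either in each pup, at 11.4 and 9.04 TPM, a mean of 10.2 ± 1.64 TPM. Pou3f3 exceeded Pou3f2 by a log2 ratio of 1.00 ± 0.40. The related Pou3f4 stood lower still at 4.73 ± 1.00 TPM.

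Around Pou3f3 a long noncoding RNA was far more abundant in TPM than the gene. Pantr1 is a lincRNA gene that starts close to Pou3f3 and is transcribed away from it (chr1:42590782-42694842). It stood at 188 TPM (pup 1) and 335 TPM (pup 3) and shares no exonic base with Pou3f3. In counts, which are not corrected for length, Pantr1 had 2406 and 4924 against 3582 and 4782 for Pou3f3. AC122898.1, annotated across Pou3f3 on the same strand, stood at 4.80 and 4.60 TPM. Antisense entries at the other loci had almost no reads: Gm16599 within Cux1 had 0 counts in both pups, Gm2164 over the start of Pou3f1 had 0 and 1.09, and Gm16758 near Mdga1 had 6 and 11. Strandedness of the libraries is not stated in the labels, so that reads in shared exonic bases (394 with Cux1, 330 with Pou3f1) could belong to either gene.

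Rorb (ENSMUSG00000036192.15, chr19:18930605-19111196) stood at 9.85 TPM (pup 1) and 5.30 TPM (pup 3), a mean of 7.58 ± 3.22 TPM. Expected counts were assigned to transcripts from both of its starts. These 2 transcripts share 9 of their 10 exons. Reads in shared exons were divided by the quantifier, and reads at the starts themselves were not counted here. The upstream start held 6.49 TPM in pup 1 (65.9% of Rorb) and 3.03 TPM in pup 3 (57.2%), and the downstream start 3.04 TPM (30.9%) and 2.06 TPM (38.9%). The upstream form was the higher one in both pups, by a log2 ratio of 0.80 ± 0.38. The transcripts are of similar length (9293 and 8759 bases), and their shares of the counts, 68.9% and 60.3% against 30.3% and 38.7%, were close to their shares of TPM. The deposited intervals of the forms did not overlap in pup 1 (5.40 to 7.35 against 1.89 to 3.88 TPM) but did in pup 3 (2.08 to 3.82 against 1.10 to 2.90 TPM).

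The promoters in front of these starts differ in base composition. Each is shown for the 250 bases before the start of transcription, from RefSeq (GRCm38.p6, minus strand, chr19:19111197-19111446 and chr19:19001118-19001367), with every CG dinucleotide in capitals, a motif that reads the same on both strands.
Rorb upstream: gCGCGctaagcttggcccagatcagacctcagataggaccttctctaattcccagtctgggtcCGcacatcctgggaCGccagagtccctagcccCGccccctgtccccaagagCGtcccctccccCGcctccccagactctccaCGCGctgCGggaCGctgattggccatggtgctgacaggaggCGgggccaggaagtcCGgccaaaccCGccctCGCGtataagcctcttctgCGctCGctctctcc
Rorb downstream: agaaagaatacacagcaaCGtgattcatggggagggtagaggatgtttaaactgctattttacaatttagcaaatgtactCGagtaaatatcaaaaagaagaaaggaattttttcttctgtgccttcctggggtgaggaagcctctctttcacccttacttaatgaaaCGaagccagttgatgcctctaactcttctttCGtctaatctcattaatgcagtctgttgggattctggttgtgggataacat

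The upstream promoter held 18 CG dinucleotides and was 66.0% G and C. Of 32851 RefSeq promoter windows of this length, 21.7% held as many or more, and the median was 6. The downstream promoter held 4 and was 39.2% G and C, and 62.2% of windows held as many or more. Promoter windows were listed for 6 of the 7 genes.

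Rora, the relative of Rorb that is used in thalamus and cerebellum, stood at 14.6 ± 7.19 TPM, above Rorb in both pups by a log2 ratio (Rorb over Rora) of -0.92 ± 0.11. In counts, which are not corrected for length, Rorb was the higher one.

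Mdga1 (ENSMUSG00000043557.16, chr17:29827949-29970087) stood at 8.99 TPM (pup 1) and 6.04 TPM (pup 3), a mean of 7.52 ± 2.09 TPM. The full coding transcripts held 5.31 TPM (pup 1) and 3.59 TPM (pup 3), or 59.3% ± 0.263 of the gene. In counts they held 94.3% and 94.8%. The other 8 listed transcripts held 3.68 and 2.45 TPM on 70.0 and 47.7 counts. Among them a noncoding transcript of 669 bases held 19.6% and 17.9% of the TPM on 26.2 and 18.1 reads, with a deposited interval of 0.226 to 3.21 TPM in pup 1. That share depended on the annotation. The transcript had 1.76 and 1.08 TPM in M21 but 0.19 and 0.12 TPM in the alternative annotation M4. A transcript of 6541 bases, with 0 counts in both pups in M21, had 1.87 and 1.47 TPM in M4. The full coding transcripts alone had a mean of 4.45 ± 1.22 TPM.

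Mdga2, the relative of Mdga1, stood higher at 21.5 ± 11.6 TPM, by a log2 ratio (Mdga1 over Mdga2) of -1.42 ± 0.42. Of the neuroligins, synaptic adhesion proteins that MDGA proteins bind, 3 were examined and these 3 were detected, at 59.6 ± 10.6 TPM for Nlgn3, 23.6 ± 5.96 TPM for Nlgn1 and 12.7 ± 3.29 TPM for Nlgn2.

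**Figure D3:**
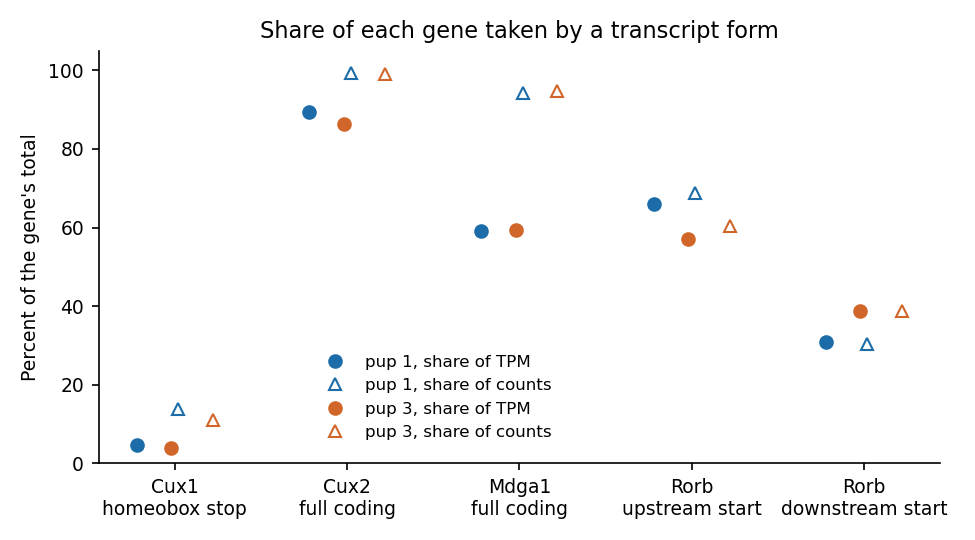
Share of each gene's total taken by a transcript form, in percent, for pup 1 (blue) and pup 3 (orange). Filled circles are shares of TPM and open triangles shares of expected counts. The Rorb shares are alike in both units, whereas the full coding forms of Mdga1 and Cux2 take 94.3% to 99.5% of the counts and less of the TPM.

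By gene total the order of levels was Cux1, Pou3f1, Pou3f3, Cux2, Pou3f2, Rorb and Mdga1. Neighbours whose ranges over the pups overlapped were Pou3f1 and Pou3f3, Pou3f2 and Rorb, and Rorb and Mdga1. The other neighbours did not overlap. The homeobox transcripts of Cux1, at 2.89 ± 0.474 TPM, lay below all 7 gene totals in both pups.

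Of 14 other genes of the upper layers 13 were detected in both pups. The exception, Rspo1, had 1.55 TPM (pup 1) and 0.69 TPM (pup 3). Over the 14 the median was 16.0 ± 0.697 TPM, and the LIM-only factor Lmo4 was highest at 199 ± 8.49 TPM. Lhx2, which is active in progenitors as well, stood at 36.3 ± 2.33 TPM, and Unc5d, a netrin receptor of upper-layer precursors, at 4.49 ± 2.09 TPM. All 10 deep-layer genes were detected. Their median was 38.7 ± 5.18 TPM, and they ranged from Zfpm2 at 7.63 ± 1.82 TPM to Crym at 121 ± 28.8 TPM. A list's median is no count of the cells of a layer, and in bulk RNA fewer cells of a type and less RNA per cell cannot be told apart. The RNA came from whole forebrain, so these levels can include RNA made outside the cortex. That part was not measured for any list.

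The tissue label was checked against marker genes. Neurod6, a factor of cortical excitatory neurons, stood at 256 ± 84.0 TPM. None of 4 midbrain and hindbrain genes was detected, with En1 the highest at 0.0950 TPM and Hoxb3 and Hoxb4 at 0 counts. Genes of other cell types were detected too. Thalamic genes had a median of 23.6 ± 13.5 TPM, radial glia genes 92.0 ± 9.93 TPM, intermediate progenitor genes 3.86 ± 0.0530 TPM and oligodendrocyte precursor genes 9.76 ± 2.52 TPM.

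Between the pups none of the 7 genes differed by over 2-fold. Differences are log2 of TPM + 1 in pup 3 over pup 1, less the median of the 15463 genes whose mean TPM reached 1, which was -0.24. At that limit 1.78% of these genes were called, so 0 of 7 is no finding about the 7. Relative to the median 4 were higher in pup 3 and 3 lower, with a median of 0.13.

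Pou3f1 was the gene furthest from the median, higher in pup 3 by 0.78 on the log2 scale, and 96.4% of the genes tested lay closer to it. Its reads rose from 1632 to 2724, an unscaled log2 ratio with an exact 95% interval from counting error of 0.65 to 0.83. Pou3f3 was higher in pup 3 by 0.47. Both were higher in pup 3 under each of 11 settings of unit, scaling and centring. Pantr1, the neighbour of Pou3f3, was higher in pup 3 by 1.07. All 4 cortical excitatory markers lay above the median, at 0.23 to 0.92, with a summed level of 322 TPM (pup 1) and 450 TPM (pup 3). Most of that sum is Neurod6, at 197 and 316 TPM, and Emx1 had 23.8 and 32.6 TPM. Before centring, Neurod2 (61.9 and 61.5 TPM) and Slc17a7 (39.32 and 39.98 TPM) were nearly level, and the list's median was 50.6 and 50.7 TPM. All 4 intermediate progenitor genes lay above the median too, at 0.18 to 0.39. Below it lay 3 of 5 radial glia genes and 1 of 3 forebrain genes, Emx2 at -0.87. The part of these markers in the POU values was not tested.

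Rorb was lower in pup 3, with a difference of -0.55 relative to the median, and lower under each of the 11 settings, from -0.78 to -0.31. Its upstream form differed by -0.66 and its downstream form by -0.16, and the difference between the forms has no test with 1 library per pup. All 4 thalamic genes were lower in pup 3, at -1.70 to -0.76, with a summed level of 318 TPM (pup 1) and 124 TPM (pup 3). Tcf7l2 made up most of that sum, at 233 and 89.6 TPM. Of 5 hypothalamic genes 3 were detected in both pups, and the sum over all 5, 168 and 77.9 TPM, was mostly Avp, at 149.8 and 66.0 TPM. Trh differed by -0.11 relative to the median and Nkx2-1 by -0.54. Rora differed by -0.74. Below the median too lay 4 of 5 interneuron genes, 6 of 10 deep-layer genes and 5 of 14 other upper-layer genes. The lowest of these lists were Lhx6 at -0.69, Foxp2 at -0.79 and Kitl at -0.66. The part of any of these cell types in the Rorb value was not tested. Mdga1 differed by -0.27 and was lower under each setting too, and Mdga2 differed by -0.87.

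Cux1 (0.13), Cux2 (0.15) and Pou3f2 (-0.06) lay close to the median, and each changed sign under at least 1 of the 11 settings. The Cux1 CASP form differed by 0.25 and its homeobox form by -0.01. The remaining Cux1 transcripts differed by -1.03, on 325 counts in pup 1 and 128 in pup 3.

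Transcript length moved with these values. Protein-coding genes under 1000 bases had a median log2 ratio of 0.09 before centring and those of 6000 bases or more -0.48. Against the 500 protein-coding genes nearest in length, a comparison chosen after seeing the data, Pou3f1 differed by 0.93, Pou3f3 by 0.71, Cux2 by 0.39, Cux1 by 0.20, Pou3f2 by 0.15, Mdga1 by -0.07 and Rorb by -0.31. The pups also differed in sex-linked RNA, with 3115 counts of the Y-linked Ddx3y in pup 1 and 0 in pup 3, and 2.17 against 4428 counts of Xist, so that pup and sex cannot be told apart here.

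**Figure D4:**
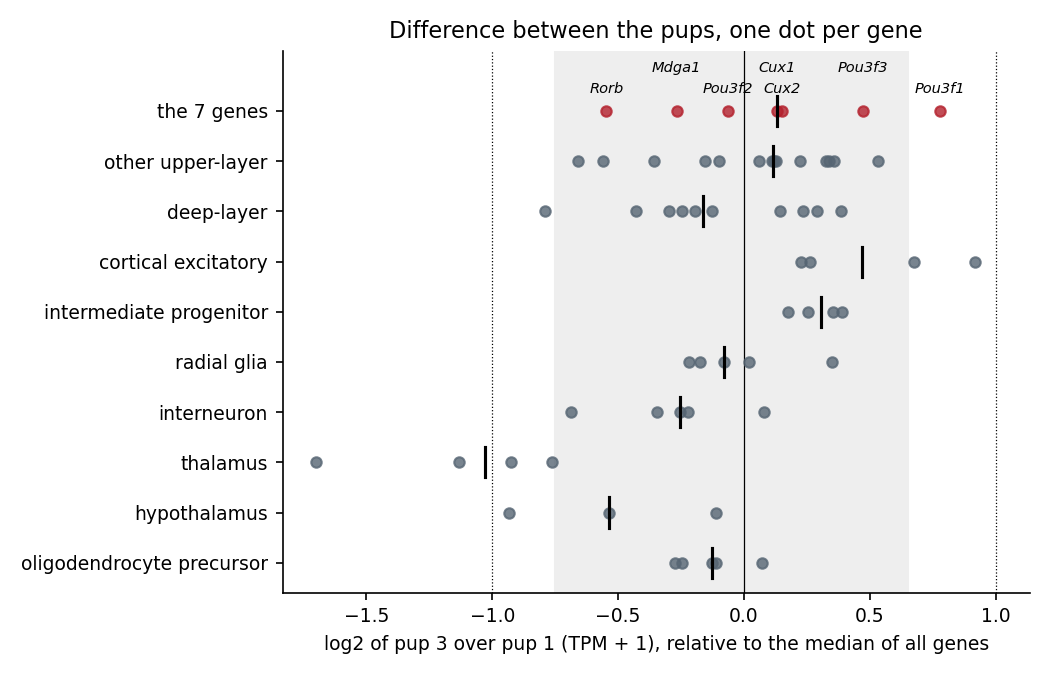
Difference between the pups for single genes (dots), as log2 of TPM + 1 in pup 3 over pup 1 relative to the median of all genes, by gene list, with each list's median as a bar. The grey band holds the central 95% of the 15463 genes, and dotted lines mark 2-fold. Of the 7 genes named at the top only Pou3f1 lies beyond the band, none passes 2-fold, and the lowest dot, at -1.70, is a thalamic gene.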

How the data were processed

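Per the labels, RNA was extracted with the mirVana kit, primed with oligo-dT and tagmented with Nextera, with spike-in RNA added. The authors deposited expected counts per gene and transcript (multi-mapping reads are divided among features). The authors also deposited TPM, scaled over all listed features, as point estimates and posterior means, and FPKM. Deposited transcript tables give each transcript's percent of its gene. Tables use mm10 with annotation M21 (used here) or M4 (an alternative), per the deposited file list. The aligner, the quantifier and the level of the deposited credible intervals were not given in the sources used here. Columns carry RSEM's names, per the file headers.

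Libraries held 40964891 (pup 1) and 41230878 (pup 3) expected counts, of which 0.000827% and 0.000680% were not in genes. Transcript forms were grouped by M21 stop codon (Cux1, Cux2, Mdga1) or start codon (Rorb). Log2 differences used a pseudocount of 1 and pair ratios 0.1. With 2 libraries in 1 group no p-value was computed, and SDs are over 2 pups. The exact interval computed from reads and the limits from 3 counts cover counting error alone, as the tables hold no molecular identifiers. The deposited credible intervals are separate from these, and the sources of error that they cover were not examined here. Scaling alternatives used edgeR 4.0.16 (TMM) and DESeq2 1.42.0 (size factors) on expected counts, rounded to whole numbers for DESeq2. Genes named are the listed ones, the highest and lowest of each comparison list, pair genes, neighbours within 2000 bases, and some others chosen after their values were seen. The genes and lists were chosen with earlier results of these data known.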

Additional observations from a re-analysis of the deposited data

How the results depend on the processing

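All 7 genes were detected under each TPM minimum (0.5 to 5), unit and annotation run, and 0 were over 2-fold in each setting run. In counts, not per length, the mean log2 ratio of Pou3f3/Pou3f2 was 1.42, Pou3f3/Pou3f1 0.97, Cux1/Cux2 0.92, Mdga1/Mdga2 -0.79, and Rorb/Rora changed sign to 0.59. The Cux1/Cux2 pair was 2.28 with a pseudocount of 1, 2.27 in posterior mean TPM, 2.46 in M4, and -1.99 between homeobox transcripts. Pou3f3/Pou3f1 ran from -0.15 to 0.17 with a replicate left out, and the median of other upper-layer genes from 15.8 to 16.8 TPM. Shares of counts, like the homeobox pair and the length neighbours chosen after seeing the data, were 83.3% (Cux1 CASP), 12.5% (Cux1 homeobox), 99.3% (Cux2) and 94.6% (Mdga1). Posterior means gave 82.1% for Cux2 and 50.4% for Mdga1, and M4 53.6% for Mdga1. With 2 pups, leaving 1 out cannot move a mean by more than its SD. No paired analysis was possible because the labels hold 1 group.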
